A study of Mus musculus with 18 samples.

Results

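RNA was measured in libraries of eosinophils taken from the peritoneal cavity of C57BL/6 mice of the line NJ.1638, which carry an *Il5* transgene and hold many eosinophils. The question was how far the response to IL-4, a stimulus of Type 2 environments, differs from the response to IFN-γ with *E. coli*, a stimulus of Type 1 environments. The comparison used 12 of the 18 libraries of the series, with 3 in each group, and the genes listed in both layouts of the count files, 54232 of 55029. For each gene the difference of responses is the log2 fold change with IL-4 against unstimulated libraries d to f minus the log2 fold change with IFN-γ and *E. coli* against unstimulated libraries a to c.

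All 4 groups share the strain and the transgene, and the age of the mice is not given. One stimulated group was kept for 18 h with IL-4 at 100 ng/ml. The other was kept for 18 h with IFN-γ at 50 ng/ml and heat-inactivated *E. coli*. Whether the unstimulated cells were cultured for the same time is not stated. If they were not, stimulus and time in culture cannot be told apart. Unstimulated libraries a to c share the file layout of the IFN-γ and *E. coli* libraries, and unstimulated libraries d to f share that of the IL-4 libraries. The cells came from a transgenic line with high IL-5, by removing cells that carried Thy1.2 or B220, and by the study's methods were used at a purity above 95% as judged by flow cytometry. The study calls its samples biological replicates, but the labels do not say that the libraries of a group came from separate animals or cultures, so p-values measure the spread between these samples, which may be technical.

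IL-4 binds a receptor that shares its alpha chain with the IL-13 receptor and activates STAT6, which in macrophages turns on genes such as chemokines of the CCL family and enzymes of lipid and arginine metabolism. IFN-γ turns on chemokines, guanylate-binding proteins and antigen presentation, while bacterial products act through Toll-like receptors on NF-κB and its inflammatory cytokines. Eosinophils carry receptors for all of these and are known for granule proteins, Siglec-F, CCR3 and dependence on IL-5.

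Counts on genes ranged from 1523808 to 2419241 per library in unstimulated a to c and IFN-γ with *E. coli*, and from 3625036 to 6482289 in unstimulated d to f and IL-4. Relative to these totals 3 counts were 1.24 to 1.97 CPM in the first layout, of unstimulated a to c, and 0.463 to 0.828 CPM in the second. CPM values of genes below also include TMM factors. No gene exceeded 4095 counts in the first layout, while the highest gene held 87377 to 191131 counts in the libraries of the second. Identifiers of 6 bases come in 4096 kinds, and a ceiling at that number would compress folds of abundant genes in the first layout. Of the genes tested, 195 came near it, and 102 of these were called for the difference, while 3768 (34.4%) of all 10947 genes tested were.

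Unstimulated e, the deepest library, differed from its group. The chi-square per degree of freedom of its counts, which grows with depth, was 23.4 against unstimulated d and 22.1 against unstimulated f, while d against f gave 7.74 and pairs within the other groups gave 2.43 to 5.50. By the correlation of log2 values IFN-γ and *E. coli* 3 lay as far from its group, at r = 0.962 and 0.970, as unstimulated e did at 0.963 and 0.970. Without IFN-γ and *E. coli* 3 there were 1713 genes called higher and 1650 lower for the difference. Without unstimulated e 1841 genes were called higher and 1978 lower for the difference, in place of 1748 and 2020. The counts of genes called in opposite directions were then 243 and 207, and those called in the same direction 240 and 97, in place of 249, 255, 238 and 96.

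The eosinophil label was set against its markers. *Siglecf*, the gene of Siglec-F, was read at 864 ± 105 CPM (mean ± SD, n = 3) in unstimulated a to c and 802 ± 37.5 CPM in unstimulated d to f. *Ccr3*, the eotaxin receptor, stood at 1211 ± 207 and 2436 ± 521 CPM, and *Il5ra*, the alpha chain of the IL-5 receptor, at 152 ± 22.5 and 46.5 ± 2.74 CPM. The granule protein genes *Epx* and *Prg3* were too low to be tested, while the granule protein gene *Prg2* was read at 24.97 ± 2.34 and 39.7 ± 12.7 CPM. The 10 eosinophil markers summed to 2716, 3476 and 2943 CPM in unstimulated a, b and c, 2929, 2613 and 2847 CPM in the IFN-γ and *E. coli* libraries, 3890, 5127 and 3989 CPM in unstimulated d, e and f, and 3494, 3700 and 3537 CPM in the IL-4 libraries.

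Of 10947 genes tested, 1748 (16.0%) responded more upward, or less downward, to IL-4 than to IFN-γ with *E. coli*, and 2020 (18.5%) the reverse, by edgeR's quasi-likelihood test at a Benjamini-Hochberg adjusted p under 0.05. Of these, 1365 and 1254 differed by a factor of 2 or more. Most of the calls came with a change under IFN-γ and *E. coli* and none called under IL-4. Among genes higher for the difference, 1095 fell with IFN-γ and *E. coli* without a called response to IL-4, 184 rose with IL-4 without a called response to the other stimulus, and 249 rose with IL-4 and fell with IFN-γ and *E. coli*. Among genes lower for the difference, 1304 rose with IFN-γ and *E. coli* without a called response to IL-4, 159 fell with IL-4 alone by the same reading, and 255 fell with IL-4 and rose with IFN-γ and *E. coli*. A response called under one stimulus and not under the other was read as different only where the difference itself was called.

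IL-4 raised 806 genes (7.36%) and lowered 631 (5.76%), and IFN-γ with *E. coli* raised 2345 (21.4%) and lowered 1946 (17.8%). The spread of the log2 responses over genes was 0.66 (SD) for IL-4 and 1.14 for IFN-γ with *E. coli*. Across genes the responses had a Pearson r of -0.0892 and a Spearman rho of -0.135. They share no library, and genes are not independent replicates. Genes called in opposite directions numbered 249 (2.27%) up with IL-4 and 255 (2.33%) down with IL-4, while 238 (2.17%) rose and 96 (0.877%) fell with both stimuli. Leaving out IL-4 1 gave 164 in place of 249, and leaving out IL-4 1, 2 or 3 gave 158, 166 and 166 in place of 255. The 96 genes that fell with both became 63 without IL-4 1 and 60 without IL-4 2. In the order 249, 255, 238 and 96, thinning all libraries to the smallest total gave 102, 137, 147 and 41. Requiring a factor of 2 gave 96, 51, 90 and 21, and a block by the numbers of the stimulated libraries gave 104, 108, 137 and 35.

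**Figure D1:**
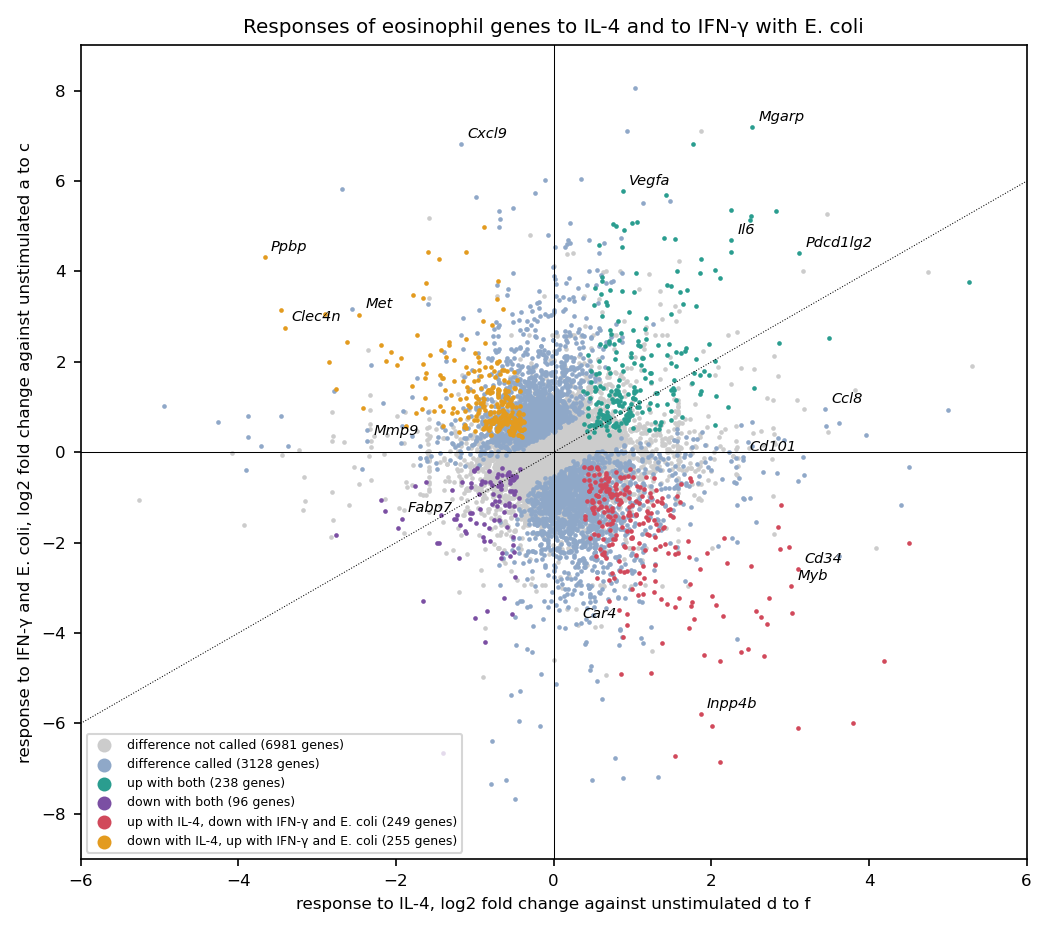
Log2 response to IL-4 (x axis) against log2 response to IFN-γ with *E. coli* (y axis) for the 10947 genes tested, each point 1 gene, coloured by the calls of both responses and of their difference. The 249 and 255 genes of opposite direction lie at the lower right and upper left, and the vertical spread exceeds the horizontal one.

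The unstimulated groups themselves differed widely between the layouts. Unstimulated d to f were higher than unstimulated a to c in 2656 genes (24.3%) and lower in 2729 (24.9%), with a median absolute log2 difference of 0.57 over all genes tested. For this reason each stimulus was read only against the unstimulated libraries of its own layout. *Gapdh*, a glycolytic enzyme, was at 369 CPM in unstimulated a to c and 5.56 CPM in unstimulated d to f.

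The largest negative differences with counts in both layouts included those of chemokines, a lectin receptor, a cytokine and a collagenase. *Cxcl9*, a chemokine that attracts T cells through CXCR3, was read at 1.57, 1.61 and 4.93 CPM in unstimulated a to c and 229, 324 and 395 CPM with IFN-γ and *E. coli*. In the other layout it was read at 3.46, 4.52 and 5.12 CPM in unstimulated d to f and 0.433, 3.23 and 2.06 CPM with IL-4. All libraries with IFN-γ and *E. coli* were thus far above every other library, and the IL-4 libraries lay below their unstimulated group, a response that was not called. The difference of responses was -7.99 ± 0.63 (log2 ± SE, edgeR adjusted p = 5.35e-08), and it was -8.80 without unstimulated c and -8.74 without IL-4 2.

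*Ppbp*, which encodes the precursor of the chemokine CXCL7, moved in opposite directions. It went from 4.08, 6.96 and 13.4 CPM in unstimulated a to c to 149.7, 164 and 172 CPM with IFN-γ and *E. coli*, and from 82.8, 178 and 74.4 CPM in unstimulated d to f to 8.45, 7.78 and 10.6 CPM with IL-4. Neither pair of groups overlapped, although the level of unstimulated d to f was above that of unstimulated a to c. The responses were -3.67 with IL-4 and 4.31 under IFN-γ and *E. coli*, and their difference was -7.98 ± 0.50 (edgeR adjusted p = 3.56e-09). It was -8.62 without unstimulated c.

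*Clec4n* encodes dectin-2, a lectin receptor for fungal mannans. Its level was 53.4, 42.8 and 53.9 CPM in unstimulated a to c and 288, 366 and 370.4 CPM with IFN-γ and *E. coli*. In unstimulated d to f it was 222, 426 and 349.8 CPM, and with IL-4 33.2, 32.1 and 28.9 CPM. The unstimulated groups differed between layouts, but each stimulus moved all of its libraries past those of its own unstimulated group. The difference was -6.17 ± 0.29 (edgeR adjusted p = 3.93e-10), from -3.40 with IL-4 and 2.76 under IFN-γ and *E. coli*.

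*Clic5*, a chloride intracellular channel gene, rose from a mean of 3.15 to 221 CPM with IFN-γ and *E. coli* and stood at 9.88 and 9.37 CPM without and with IL-4, a difference of -6.13 ± 0.39 (edgeR adjusted p = 3.87e-09). *Mmp8*, neutrophil collagenase, went from 8.38 to 182 CPM with IFN-γ and *E. coli* and from 9.43 to 3.15 CPM with IL-4. Its difference of -6.03 (edgeR adjusted p = 1.44e-08) was -5.41 without unstimulated f, where it was highest of its group. The alarmin gene *Il33* had 1 count in total in unstimulated a to c and 28, 47 and 45 counts in the IFN-γ and *E. coli* libraries, a ratio of 179.7 (counting interval 31.6 to 7158). With IL-4 it was read at 5.42, 5.88 and 6.78 CPM against 3.46, 3.01 and 2.98 CPM, a response that was not called (edgeR adjusted p = 0.0684).

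The largest positive differences included genes that were lost from the IFN-γ and *E. coli* libraries. *Ano1*, a calcium-activated chloride channel, *Marc1*, a mitochondrial reductase, and *BC051226* were at 0 in every IFN-γ and *E. coli* library, at least 2.49-fold, 3.24-fold and 2.33-fold lower than in unstimulated a to c against a floor of 3 counts per library. Of these, *Ano1* and *BC051226* rose with IL-4, from 1.30 to 5.20 CPM (edgeR adjusted p = 0.0115) and from 2.20 to 6.38 CPM (edgeR adjusted p = 0.0174).

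*Inpp4b*, an inositol polyphosphate phosphatase, had 96, 39 and 50 counts in unstimulated a to c and 0, 1 and 1 with IFN-γ and *E. coli*, lower by a ratio of 61.8 (counting interval 16.9 to 514). With IL-4 it rose from 6, 4 and 23 to 55, 52 and 19 counts (edgeR adjusted p = 0.0126). Unstimulated f lay above the other libraries of its group, and scaled to CPM all IL-4 libraries lay above it. *Atp8b5*, a phospholipid flippase gene, had 1 count in total with IFN-γ and *E. coli* against 63, 33 and 22 in unstimulated a to c, lower by a ratio of 78.8 (counting interval 13.9 to 3138), and rose from 1.97 to 7.53 CPM with IL-4 (edgeR adjusted p = 0.0126). Intervals and floors cover counting error only, since counted reads need not be independent molecules.

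Some called genes had groups with few or no counts. *Il12b*, the shared chain of IL-12 and IL-23, had 0, 0 and 2 counts in unstimulated a to c and 27, 43 and 17 with IFN-γ and *E. coli*, but at most 7 counts in any library of the IL-4 layout, where its response was not called (edgeR adjusted p = 0.191). *Ccm2l*, an endothelial adaptor gene, had 33, 38 and 20 counts in the IL-4 libraries, 0, 0 and 6 in unstimulated d to f and 0 in every library with IFN-γ and *E. coli* against 12, 4 and 3 in unstimulated a to c, at least 1.34-fold lower. Of the genes called for the difference, 1088 overlap in their exons a gene read from the other strand, as do 3424 of those tested, and the sources do not state whether counting used the strand. Genes named here that do so are *Bhlhe41*, *Bnip3*, *Cd274*, *Cd34*, *Cd9*, *Ch25h*, *Dhx58*, *Gapdh*, *Gpi1*, *Grn*, *Hif1a*, *Il16*, *Il1b*, *Il1rap*, *Il4ra*, *Irak3*, *Irf1*, *Myb*, *Slc2a1*, *Tap1* and *Tpi1*. Genes named here that came near the ceiling are *Ccl3*, *Ccr3*, *Cd274*, *Cd9*, *Cxcl3*, *Egln3*, *Ero1l*, *Gapdh*, *Gbp7*, *Gpi1*, *Grn*, *Ifitm1*, *Il1b*, *Irf1*, *Isg15*, *Lyz2*, *Nos2*, *Siglecf*, *Slc11a1*, *Socs1* and *Tpi1*.

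The 249 genes up with IL-4 and down with IFN-γ and *E. coli* held *Cd34*, *Myb* and *Mapt*. *Cd34*, a sialomucin of progenitors that mature eosinophils also carry when they migrate, went from 3.46, 3.58 and 5.12 CPM in unstimulated d to f to 30.8, 31.3 and 44.2 CPM with IL-4. It went from 29.8, 26.2 and 13.4 CPM in unstimulated a to c to 4.58, 2.49 and 4.63 CPM with IFN-γ and *E. coli*. Neither pair of groups overlapped, and the responses of 3.10 and -2.58 gave a difference of 5.68 ± 0.48 (edgeR adjusted p = 1.15e-07). For *Cd34* unstimulated d to f lay below every library of unstimulated a to c and near the IFN-γ and *E. coli* libraries. *Myb*, a transcription factor of blood progenitors, rose from 2.52, 4.71 and 2.34 to 32.3, 23.9 and 24.2 CPM with IL-4 and had 2, 2 and 1 counts with IFN-γ and *E. coli* against 36, 10 and 16, lower by a ratio of 8.28 (counting interval 3.36 to 26.4). *Mapt*, which encodes the microtubule protein tau, rose from 3.26 to 22.2 CPM with IL-4 and fell from 14.1 to 1.48 CPM with IFN-γ and *E. coli* (edgeR adjusted p = 5.76e-06 for the difference of 5.95). The mean CPM of *Myb* and of *Mapt* was also lower in unstimulated d to f than in unstimulated a to c.

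The 255 genes down with IL-4 and up with IFN-γ and *E. coli* held *Ppbp* and *Clec4n*, as above, with *Met* and *Akr1b8*. *Met*, the receptor of hepatocyte growth factor, was read at 33.1, 48.00 and 41.99 CPM in unstimulated d to f and 8.67, 3.79 and 10.6 CPM with IL-4, and at 6.28, 5.89 and 12.7 CPM in unstimulated a to c and 74.5, 72.6 and 62.5 CPM with IFN-γ and *E. coli*. Its libraries did not overlap in either layout, and its difference was -5.51 ± 0.43 (edgeR adjusted p = 4.22e-08). For *Met* unstimulated d to f lay above unstimulated a to c, and the IL-4 libraries lay near the latter. *Akr1b8*, an aldo-keto reductase, fell from a mean of 12.6 to 1.63 CPM with IL-4 and rose from 4.82 to 41.2 CPM with the other stimulus, a difference of -5.96 ± 0.45 (edgeR adjusted p = 3.15e-08). Its mean was also higher in unstimulated d to f than in unstimulated a to c.

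Of the 238 genes that rose with both stimuli, 96 rose less with IL-4 by the test of the difference, 9 rose more and 133 were not called for it. *Mgarp*, a mitochondrial protein gene induced in hypoxia, rose with IL-4 from 3.78, 3.39 and 4.05 to 21.9, 14.8 and 28.6 CPM and with IFN-γ and *E. coli* from 2 counts in total to 59, 98 and 71 counts, a ratio of 171 (counting interval 46.7 to 1419). No groups overlapped, and the difference was called (edgeR adjusted p = 4.43e-05). *Pdcd1lg2*, the gene of the checkpoint ligand PD-L2, rose by 3.11 with IL-4 (edgeR adjusted p = 3.97e-07) and had 29, 53 and 36 counts with IFN-γ and *E. coli* against 3, 2 and 3, a ratio of 22.1 (counting interval 10.8 to 52.4). The call of its difference (edgeR adjusted p = 0.0407) was lost when any of 10 single libraries was left out, all but unstimulated e and IFN-γ and *E. coli* 1, and adjusted p over all alternative settings ran from 0.0314 to 0.507. *Ido1*, the enzyme that opens the kynurenine pathway, had 30, 45 and 14 counts with IL-4 against 3, 2 and 2, a ratio of 12.6 (counting interval 5.88 to 32.3), and rose from 0.997 to 6.02 CPM with IFN-γ and *E. coli*.

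Among the 96 genes that fell with both were *Fabp7*, *Siglec1* and *Lypd6*. *Fabp7*, a fatty acid-binding protein, fell from 98.9, 90.7 and 105 to 21.02, 28.8 and 27.7 CPM with IL-4 and from 40.5, 33.2 and 37.7 to 13.1, 13.4 and 13.9 CPM with IFN-γ and *E. coli*. Every stimulated library was below every unstimulated library of its layout, and the difference of -0.46 was not called (edgeR adjusted p = 0.167). *Siglec1*, the sialoadhesin gene, fell by 1.48 and 2.01 on the log2 scale under IL-4 and under the other stimulus. *Lypd6*, a member of the Ly6 family, fell by 1.97 and 1.67, and neither difference was called (edgeR adjusted p = 0.429 and edgeR adjusted p = 0.685).

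Of 10 genes of the IL-4 receptor and STAT6 signalling, 2 were higher and 4 lower for the difference, with a median of -0.39 (-0.46 to -0.16) beside 0.00 over all genes tested, of which 1748 were higher and 2020 lower. The range in brackets after the median of a list is that over the alternative settings that keep every library and each stimulus against its own unstimulated group. The alpha chain *Il4ra* was called for neither response, at 136 ± 24.2 CPM in unstimulated d to f and 129 ± 8.23 CPM with IL-4. *Il13ra1*, which pairs with it to bind IL-13, rose with IFN-γ and *E. coli* from 5.02, 4.82 and 6.34 to 55.6, 49.7 and 65.98 CPM and was read at 10.1, 12.4 and 14.9 CPM in unstimulated d to f and 19.1, 11.6 and 12.7 CPM with IL-4. The latter groups overlapped, and the difference was -3.18 ± 0.35 (edgeR adjusted p = 2.54e-06). *Il2rg*, the common gamma chain, rose with IFN-γ and *E. coli* by 1.49, with a difference of -1.73 (edgeR adjusted p = 1.55e-06).

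Cytokine receptors numbered 4 higher and 11 lower of 28, with a median difference of -0.52 (-0.64 to -0.33). *Il1r2*, the decoy receptor of IL-1, rose with both stimuli, by 0.61 with IL-4 and 3.78 under IFN-γ and *E. coli*. In the other direction *Il1rap*, the accessory chain of IL-1 and IL-33 receptors, rose with IL-4 from 9.54 to 26.9 CPM and fell with IFN-γ and *E. coli* from 15.3 to 5.93 CPM (edgeR adjusted p = 1.1e-05 for the difference of 2.86). *Ifngr1*, the ligand-binding chain of the IFN-γ receptor, did the same at 0.57 and -0.49. JAK, STAT and SOCS genes gave 3 higher and 6 lower of 21, with a median of -0.15 (-0.28 to -0.01). The feedback inhibitor *Socs1* rose by 1.53 with IL-4 and 1.38 under IFN-γ and *E. coli*, and its difference of 0.15 was not called (edgeR adjusted p = 0.595). *Socs3* rose with both, and more with IFN-γ and *E. coli*, with a difference of -1.06 (edgeR adjusted p = 0.00267) that the direct comparison of stimuli did not call.

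Genes that IL-4 and STAT6 induce in macrophages split. Of 26 tested, 15 rose with IL-4 and 11 rose with IFN-γ and *E. coli*, 7 of them with both. For the difference 6 were higher and 7 lower, with a median of 0.16 (-0.33 to 0.44). The larger of these counts changed sides without IFN-γ and *E. coli* 3 and in some alternative settings. *Batf3*, a transcription factor of the AP-1 family, rose from 18.9, 18.1 and 13.9 to 36.6, 34.1 and 45.1 CPM with IL-4 and fell from 26.1, 28.4 and 17.96 to 9.15, 11.4 and 8.10 CPM with IFN-γ and *E. coli*, and no groups overlapped (edgeR adjusted p = 1.44e-05 for the difference of 2.50). *Ch25h*, which makes 25-hydroxycholesterol, rose by 2.22 with IL-4 and was read at 26.4 and 26.7 CPM without and with IFN-γ and *E. coli* (difference 2.21, edgeR adjusted p = 0.000242). *Tfrc*, the transferrin receptor, went the other way, from 50.4 to 30.9 CPM with IL-4 and from 12.6 to 179.9 CPM with IFN-γ and *E. coli*, a difference of -4.50 ± 0.27 (edgeR adjusted p = 2.64e-09). The nuclear receptor gene *Pparg* had 38, 30 and 14 counts with IL-4 against 1, 1 and 0, a ratio of 40.7 (counting interval 10.9 to 342). In the other layout it had 1, 2 and 5 and 1, 3 and 2 counts. The call of its difference (edgeR adjusted p = 0.0161) was lost without unstimulated b, and adjusted p over all alternative settings ran from 0.00498 to 0.0789.

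Chemokine ligands gave 4 higher and 13 lower of 23, with a median difference of -1.33 (-1.36 to -0.21). The higher ones were *Ccl8*, *Ccl12*, *Ccl22* and the B cell attractant *Cxcl13*, and this balance turned when IL-4 was set directly against IFN-γ with *E. coli*. *Ccl8*, a ligand that attracts Type 2 helper cells through CCR8 in mice, was read at 16.7, 9.60 and 9.59 CPM in unstimulated d to f and 130.2, 119.5 and 131 CPM with IL-4. It was read at 3.45, 4.82 and 8.10 CPM in unstimulated a to c and 5.88, 10.4 and 15.05 CPM with IFN-γ and *E. coli*, where the groups overlapped. The difference was 2.49 ± 0.46 (edgeR adjusted p = 0.000457). *Ccl22*, a CCR4 ligand, rose by 2.54 with IL-4 and 1.42 under IFN-γ and *E. coli*, and its difference of 1.12 was called (edgeR adjusted p = 0.00891) but not once all libraries were thinned to the smallest total. *Ccl12* rose with IL-4 from 29.4 to 83.7 CPM and stood at 26.9 and 18.9 CPM without and with the other stimulus (edgeR adjusted p = 7.41e-05 for the difference of 2.01). The eotaxin gene *Ccl24* rose by 1.53 and 1.60, and its difference of -0.07 was not called (edgeR adjusted p = 0.909).

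*Cxcl3* and the MIP-1 genes lay on the other side. *Cxcl3*, a CXCR2 ligand, was read at 105, 89.4 and 129 CPM in unstimulated a to c and 2220.3, 1925 and 2118 CPM with IFN-γ and *E. coli*, and at 147, 155 and 131 CPM in unstimulated d to f and 49.2, 55.2 and 53.6 CPM with IL-4. Both stimuli moved it past its unstimulated libraries, in opposite directions, for a difference of -5.72 ± 0.21 (edgeR adjusted p = 1.37e-11). *Ccl3*, which encodes MIP-1α, gave -0.88 with IL-4 and 4.99 under IFN-γ and *E. coli*. *Ccl4*, MIP-1β, rose with both, by 0.82 and 2.90. *Cxcl3* held 3397, 3871 and 3660 counts in the IFN-γ and *E. coli* libraries, near the ceiling, where its rise would be compressed.

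Chemoattractant receptors gave 8 higher and 5 lower of 19, with a median of -0.27 (-0.28 to 0.13). *Cxcr2*, the receptor of *Cxcl3* and *Ppbp* products, rose from 4.41, 2.82 and 5.54 to 31.9, 29.03 and 48.6 CPM with IL-4 and was read at 25.4, 19.3 and 21.8 CPM in unstimulated a to c and 19.6, 14.9 and 8.68 CPM with IFN-γ and *E. coli*. The latter groups overlapped, and the difference was 3.74 ± 0.43 (edgeR adjusted p = 3.59e-06). *Cxcr4*, the receptor of CXCL12, rose with both stimuli, by 1.86 and 1.28, with a difference of 0.58 (edgeR adjusted p = 0.0111) not called under a factor of 2. The formyl peptide receptors *Fpr1* and *Fpr2* fell with IL-4 by 1.75 and 1.42 on the log2 scale and rose with IFN-γ and *E. coli* by 0.87 and 1.64. The eotaxin receptor *Ccr3* fell by 0.72 with IL-4 and gave 0.18 with IFN-γ and *E. coli*, a difference of -0.90 (edgeR adjusted p = 0.00422) whose call was lost under a factor of 2 and whose sign turned in the direct comparison of stimuli, to 0.12. *Ltb4r1*, a leukotriene B4 receptor, fell with IFN-γ and *E. coli* by 1.45 and gave 0.05 with IL-4.

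Genes that IFN-γ induces are given as examples, without a tally. *Nos2*, inducible nitric oxide synthase, was read at 25.8, 32.6 and 51.1 CPM in unstimulated a to c and 823, 1008 and 1225 CPM with IFN-γ and *E. coli*. It was read at 129, 149 and 156 CPM in unstimulated d to f and 140.2, 129 and 143 CPM with IL-4. The rise was in every library of the first layout and the groups of the second overlapped, with a difference of -4.87 ± 0.28 (edgeR adjusted p = 1.73e-09). *Wars*, a tRNA synthetase induced by IFN-γ, gave 3.63 with IFN-γ and *E. coli* and 0.31 with IL-4. The transcription factor gene *Irf1* rose with both stimuli, by 0.98 with IL-4 and 2.11 under IFN-γ and *E. coli*, and its difference of -1.13 was called (edgeR adjusted p = 4.22e-05). The high-affinity IgG receptor *Fcgr1* was higher for the difference, at 0.96 (edgeR adjusted p = 0.00982), and it fell with IFN-γ and *E. coli*, but its call was lost on thinning to the smallest total and under a factor of 2. *Parp14*, a cofactor of STAT6, rose by 1.21 and 0.97, and its difference was not called (edgeR adjusted p = 0.48).

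Guanylate-binding proteins and immunity-related GTPases, which act on vacuoles of intracellular microbes, were lower in 9 of 17 and higher in 0, with a median of -1.47 (-1.51 to -1.32). With IL-4 8 of them rose too. *Gbp4* rose from 79.9 to 146 CPM with IL-4 and from 54.7 to 649 CPM with IFN-γ and *E. coli*, a difference of -2.70 ± 0.21 (edgeR adjusted p = 3.93e-08). *Gbp7* rose by 1.44 and 1.07, and its difference was not called (edgeR adjusted p = 0.384). Type I interferon-stimulated genes went the other way, 12 higher and 1 lower of 27, with a median of 0.36 (0.35 to 0.65). *Ifit3b* and *Ifit1bl1*, of the family that binds viral RNA, fell with both stimuli and less with IL-4, with differences of 1.58 and 1.70 (edgeR adjusted p = 0.00011 and edgeR adjusted p = 1.06e-05). *Dhx58*, a RIG-I-like receptor gene, rose with IL-4 by 0.60 and fell with IFN-γ and *E. coli* by 0.62. *Isg15*, a ubiquitin-like modifier, rose by 0.79 and 0.64, with no call for the difference (edgeR adjusted p = 0.598).

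Antigen presentation was lower for the difference where it was called. MHC class II genes gave 0 higher and 6 lower of 12, with a median of -0.82 (-1.20 to -0.74), and MHC class I genes 0 and 14 of 22, with a median of -0.56 (-0.60 to -0.43). The balance of class II genes turned when IL-4 was set directly against IFN-γ with *E. coli*. *H2-Ab1*, a class II beta chain, was read at 71.6, 52.4 and 45.8 CPM in unstimulated a to c and 251, 354 and 412 CPM with IFN-γ and *E. coli*, and at 254, 376 and 357 CPM in unstimulated d to f and 305, 321 and 462 CPM with IL-4. Its IFN-γ and *E. coli* libraries were high only against their own unstimulated group, while the libraries of the other layout lay at similar levels with and without IL-4. The difference was -2.44 ± 0.31 (edgeR adjusted p = 1.01e-05). *Psme2*, a subunit of the proteasome activator, rose by 1.92 with IFN-γ and *E. coli* and gave 0.03 with IL-4. The peptide transporter gene *Tap1* rose with both, by 0.70 and 1.27, and its called difference of -0.56 (edgeR adjusted p = 0.0154) lost its call without IFN-γ and *E. coli* 3 and without unstimulated a, where it was -0.46 and -0.43, with adjusted p from 6.60e-05 to 0.133 over all alternative settings.

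Targets of NF-κB and Toll-like receptors gave no member higher and 33 lower of 39, with a median of -1.92 (-2.02 to -1.82). *Il1b*, the gene of IL-1β, was read at 52.8, 33.2 and 40.2 CPM in unstimulated a to c and 846, 1042 and 1067 CPM with IFN-γ and *E. coli*. It was read at 96.1, 77.5 and 104 CPM in unstimulated d to f and 155, 189.5 and 164 CPM with IL-4. It rose with both stimuli without overlap of groups, by 0.87 and 4.53, for a difference of -3.66 ± 0.24 (edgeR adjusted p = 5.67e-09). *Il6* rose from 22.05, 15.2 and 18.8 to 94.9, 88.03 and 81.3 CPM with IL-4 and from 13.8, 15.5 and 21.1 to 369, 498 and 449.7 CPM with IFN-γ and *E. coli*. All stimulated libraries of this cytokine gene were above their unstimulated groups, and the difference was -2.45 ± 0.26 (edgeR adjusted p = 1.37e-06). *Tnf* moved apart, from 19.5 to 8.98 CPM with IL-4 and from 12.7 to 72.6 CPM with IFN-γ and *E. coli* (edgeR adjusted p = 7.77e-07 for the difference of -3.62). The inhibitor gene *Nfkbia* rose by 1.03 and 1.32, and its difference was not called (edgeR adjusted p = 0.399).

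Toll-like receptors and their adaptors gave 1 higher and 7 lower of 18, with a median of -0.42 (-0.43 to -0.09). *Irak3*, an inhibitory kinase of this pathway, rose by 3.23 with IFN-γ and *E. coli* and gave -0.30 with IL-4. *Tlr6*, which pairs with TLR2, fell by 0.95 with IL-4 and rose by 2.12 with IFN-γ and *E. coli*. *Tlr4*, the receptor of lipopolysaccharide, was called for neither, at 20.8, 16.6, 29.8 and 24.9 CPM in unstimulated a to c, IFN-γ with *E. coli*, unstimulated d to f and IL-4.

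Cytokines and growth factors gave 6 higher and 19 lower of 28, with a median of -1.49 (-1.51 to -1.21). *Vegfa*, which drives vessel growth, was read at 15.4, 15.5 and 22.2 CPM in unstimulated a to c and 1037, 892 and 1023 CPM with IFN-γ and *E. coli*, and at 204, 203 and 148 CPM in unstimulated d to f and 356, 356 and 307 CPM with IL-4. It rose with both stimuli, and the difference was -4.91 ± 0.24 (edgeR adjusted p = 3.93e-10). *Il13*, a Type 2 cytokine, fell with IL-4 from 13.9, 15.2 and 11.3 to 5.20, 3.41 and 4.12 CPM and rose with IFN-γ and *E. coli* from 3.14, 10.7 and 11.98 to 88.9, 89.5 and 86.8 CPM. Its groups did not overlap in either layout, with a difference of -5.07 ± 0.44 (edgeR adjusted p = 1.41e-07). *Il4* itself was read at 45.6 ± 3.54 and 45.3 ± 6.02 CPM without and with IL-4 and rose by 0.89 with the other stimulus (edgeR adjusted p = 0.003 for the difference of -0.89, a call also lost on thinning and under a factor of 2). On the higher side, *Il16*, a CD4 ligand, rose by 1.20 with IL-4 and fell by 1.33 with IFN-γ and *E. coli*, and *Hbegf*, an EGF receptor ligand, gave 1.37 and -1.02. *Grn*, which encodes progranulin, rose by 0.66 and fell by 0.78.

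Co-stimulatory and checkpoint molecules gave 6 higher and 11 lower of 20, with a median of -0.92 (-0.93 to -0.50). *Cd274*, the gene of PD-L1, was read at 112, 108 and 173 CPM in unstimulated a to c and 1454, 1355 and 1369.9 CPM with IFN-γ and *E. coli*, and at 171, 118 and 199 CPM in unstimulated d to f and 222, 218 and 191 CPM with IL-4. Only the IFN-γ and *E. coli* libraries stood clear of their unstimulated group, and the difference was -3.03 ± 0.27 (edgeR adjusted p = 1.83e-07). *Cd101*, an immunoglobulin-family surface protein, was read at 30.5, 32.6 and 19.4 CPM in unstimulated a to c and 26.1, 25.4 and 24.9 CPM with IFN-γ and *E. coli*, and at 12.6, 13.7 and 19.8 CPM in unstimulated d to f and 88.8, 68.9 and 90.2 CPM with IL-4. Only the IL-4 libraries of the 12 exceeded 60 CPM for *Cd101*, and its difference was 2.51 ± 0.31 (edgeR adjusted p = 7.24e-06). *Cd69*, an early activation marker, rose with both, by 2.04 and 0.60, and more with IL-4 (difference 1.44, edgeR adjusted p = 0.000255). *Cd80* and *Cd86*, ligands of CD28, rose with IFN-γ and *E. coli* by 1.18 and 1.29, with differences of -1.23 and -0.90 (edgeR adjusted p = 0.00548 and edgeR adjusted p = 0.00724). Thinning ended the call of *Cd80*, and a factor of 2 that of *Cd86*. *Cd244a*, a receptor of the SLAM family, rose with IL-4 from 49.2 to 101 CPM and fell with IFN-γ and *E. coli* from 65.4 to 13.5 CPM. Of 27 genes chosen from those the study names for Type 1 or Type 2 eosinophils or for all stimuli, 6 were called higher and 15 lower for the difference. The study named these from the same samples, *Cd101*, *Cd274*, *Cd34* and *Ccl8* among them, so this count is not independent evidence.

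**Figure D2:**
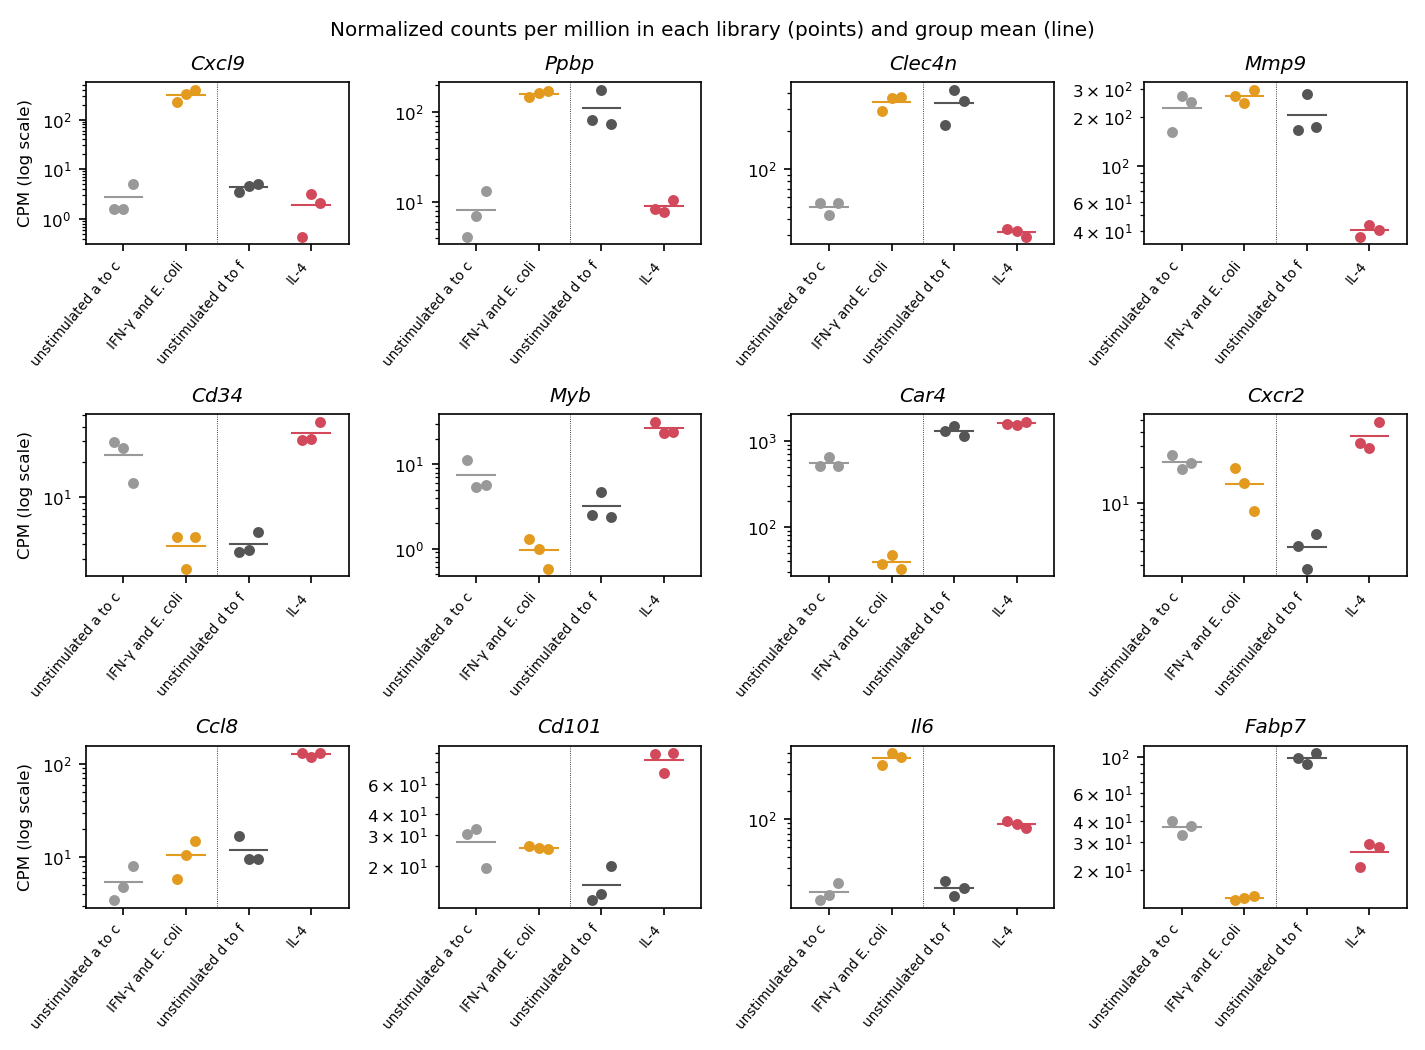
Normalized CPM (log axis) of 12 genes in each of the 12 libraries, as points by group, with a line at the group mean and a dotted line between the file layouts. For *Clec4n*, *Ppbp*, *Cd34* and *Myb* the stimulated libraries lie on opposite sides of their unstimulated groups, while *Il6* rises and *Fabp7* falls with both stimuli.

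Eosinophil identity genes gave 9 higher and 4 lower of 19, with a median of 0.09 (0.04 to 0.84). *Car4*, a carbonic anhydrase of eosinophils, was read at 502, 651 and 511 CPM in unstimulated a to c and 37.3, 47.7 and 32.99 CPM with IFN-γ and *E. coli*. It was read at 1286, 1479 and 1145 CPM in unstimulated d to f and 1577, 1529 and 1665 CPM with IL-4. The loss was in all IFN-γ and *E. coli* libraries and none of the IL-4 libraries fell below unstimulated d to f, for a difference of 4.09 ± 0.22 (edgeR adjusted p = 8.66e-10). *Tgfbi*, an extracellular matrix protein, gave 0.14 with IL-4 and -3.89 under IFN-γ and *E. coli*, and *Siglecg*, an inhibitory sialic acid receptor, fell with both, by 0.63 with IL-4 and 3.21 under IFN-γ and *E. coli*. *Siglecf*, *Il5ra* and *Prg2* rose with IL-4, by 0.39, 0.61 and 0.84, and fell with IFN-γ and *E. coli*, by 1.47, 1.19 and 1.05. *Gata1*, the lineage factor, rose by 0.82 with IFN-γ and *E. coli* and gave -0.22 with IL-4. *Cebpe*, needed for granule maturation, fell by 0.80 with IFN-γ and *E. coli* (edgeR adjusted p = 0.00045 for the difference of 1.22). The calls of *Il5ra*, *Gata1* and *Cebpe* were lost in the direct comparison. Fewer cells of a kind and less RNA per cell cannot be told apart in these bulk libraries. Genes proposed to mark eosinophil subsets gave 5 higher and 4 lower of 13, with a median of -0.40 (-0.41 to 0.88) and so no direction. Among them *Itgax*, the integrin CD11c, rose with IL-4 by 0.78 and fell by 0.74 with IFN-γ and *E. coli*, and the tetraspanin gene *Cd9* did the reverse, at -0.69 and 2.02.

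Glycolysis and lactate genes gave no member higher and 18 lower of 22, with a median of -1.50 (-1.83 to -1.41), and 5 rose with IL-4 while 21 rose with IFN-γ and *E. coli*. *Pfkfb3*, which makes the activator of phosphofructokinase, was read at 31.4, 37.99 and 36.99 CPM in unstimulated a to c and 462, 431 and 524 CPM with IFN-γ and *E. coli*. In unstimulated d to f it was 35.3, 55.3 and 45.2 CPM and with IL-4 52.01, 41.9 and 60.1 CPM. The latter groups overlapped, and the difference was -3.58 ± 0.25 (edgeR adjusted p = 1.24e-08). *Slc2a1*, the glucose transporter GLUT1, gave -0.24 with IL-4 and 2.96 under IFN-γ and *E. coli*, and *Tpi1*, triosephosphate isomerase, rose with both, by 0.51 and 3.27. *Gpi1*, the isomerase at the start of glycolysis, rose by 0.52 with IL-4 and 1.45 under IFN-γ and *E. coli* (edgeR adjusted p = 0.00345 for the difference of -0.92, a call lost under a factor of 2).

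Hypoxia-inducible genes had a median of -2.13 (-2.36 to -1.41), or -2.50 with groups at 0 set at their bound, with 1 higher and 22 lower of 27. With IL-4 16 of them rose, 14 of these also with IFN-γ and *E. coli*. *Egln3*, an oxygen-sensing prolyl hydroxylase, was read at 44.2 CPM in unstimulated a to c, 1467 CPM with IFN-γ and *E. coli*, 154 CPM in unstimulated d to f and 262 CPM with IL-4 (difference -4.30 ± 0.34, edgeR adjusted p = 5.72e-08). *Bnip3*, a mitophagy receptor, rose by 1.40 with IL-4 and 4.74 with the other stimulus, and *Ero1l*, an oxidase of the endoplasmic reticulum, by 0.71 and 3.58. *Hif1a* fell with IL-4 by 0.58 and rose with IFN-γ and *E. coli* by 1.08 (edgeR adjusted p = 1.42e-05 for the difference). The 1 member higher was *Cited2*, an inhibitor of HIF-1 that competes for its coactivator, which rose from 61.1, 40.7 and 46.7 to 108, 101 and 103 CPM with IL-4 and fell from 89.5, 87.2 and 54.95 to 22.2, 15.9 and 19.7 CPM with IFN-γ and *E. coli*, without overlap (difference 3.09 ± 0.29, edgeR adjusted p = 3.81e-07).

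ATF4 targets and amino acid supply genes gave 1 higher and 14 lower of 17, with a median of -2.07 (-2.12 to -1.69). *Slc7a11*, the cystine transporter, was read at 68.1, 73.8 and 105 CPM in unstimulated a to c and 967, 977 and 794 CPM with IFN-γ and *E. coli*, and at 579.9, 462 and 413 CPM in unstimulated d to f and 123, 167 and 132 CPM with IL-4. The groups did not overlap in either layout, and its difference was -5.26 ± 0.26 (edgeR adjusted p = 4.87e-10). *Slc7a1*, a transporter of arginine, fell with IL-4 by 1.02 and rose with IFN-γ and *E. coli* by 1.35. Enzymes of arginine, histamine, tryptophan, NAD and itaconate gave 1 higher and 7 lower of 14, with a median of -0.55 (-2.61 to 0.65), or -1.41 with groups at 0 set at their bound. The sign of this median is open. *Hdc*, which makes histamine, rose by 0.57 with IL-4 and 4.59 under IFN-γ and *E. coli* (difference -4.02, edgeR adjusted p = 1.05e-09). *Acod1*, the itaconate enzyme, gave -0.17 with IL-4 and 3.02 under IFN-γ and *E. coli*.

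Cholesterol genes gave 2 higher and 8 lower of 24, with a median of -0.21 (-0.49 to -0.11). Proteasome subunits were lower in 22 of 37 and higher in none, with a median of -0.66 (-0.67 to -0.53), as *Psmd11*, a subunit of its lid, at -1.35 (edgeR adjusted p = 2.78e-05). Ribosomal protein genes gave 1 higher (1.25%) and 17 lower (21.2%) of 80, with a median of -0.31 (-0.33 to -0.15). Over all genes tested the shares were 16.0% and 18.5%, so the share of lower genes was near that of all genes. Oxidative phosphorylation subunits gave 8 and 8 of 90, with a median of -0.01 (-0.02 to 0.07), and shares below those over all genes.

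Lipid mediator enzymes gave 7 higher and 4 lower of 15, with a median of 0.53 (0.14 to 0.63), and the larger count turned under a call rule with a factor of 2. *Ptgs2*, which encodes COX-2, was read at 32.97, 18.7 and 28.5 CPM in unstimulated a to c and 824, 957 and 1028 CPM with IFN-γ and *E. coli*, and at 46.3, 32.6 and 35.2 CPM in unstimulated d to f and 88.6, 83.1 and 62.5 CPM with IL-4. It rose with both without overlap, for a difference of -4.04 ± 0.27 (edgeR adjusted p = 9.11e-09). *Ptges*, the prostaglandin E synthase downstream of it, fell with IL-4 by 1.40 and rose with IFN-γ and *E. coli* by 0.91. *Lta4h*, which makes leukotriene B4, rose with IL-4 by 0.61 and fell with IFN-γ and *E. coli* by 0.79 (edgeR adjusted p = 4.49e-05 for the difference of 1.40).

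Antimicrobial and NADPH oxidase genes gave no member higher and 10 lower of 17, with a median of -0.87 (-2.23 to -0.71). *Ifitm1*, an interferon-induced membrane protein, was read at 69.1, 104 and 84.9 CPM in unstimulated a to c and 1922, 1744 and 1897 CPM with IFN-γ and *E. coli*, and at 141, 256 and 124 CPM in unstimulated d to f and 84.1, 86.9 and 71.6 CPM with IL-4 (difference -5.54 ± 0.32, edgeR adjusted p = 1.73e-09). Each stimulus moved it without overlap, in opposite directions. *Lcn2*, an iron-sequestering lipocalin, fell with IL-4 from 174, 164 and 208 to 29.5, 36.05 and 37.1 CPM and rose by 0.97 with IFN-γ and *E. coli*. *Slpi*, an antiprotease, and *Slc11a1*, the metal transporter NRAMP1, did the same, at -1.44 and -1.43 with IL-4 and 1.02 and 2.26 under IFN-γ and *E. coli*. *Ifitm6* fell by 2.43 with IL-4 and gave -0.37 with the other stimulus (edgeR adjusted p = 0.000931 for the difference of -2.06, a call lost on thinning).

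C-type lectin and scavenger receptors gave 3 higher and 8 lower of 17, with a median of -0.52 (-0.66 to -0.40), a balance that turned in the direct comparison of stimuli. *Clec12a*, an inhibitory receptor for uric acid crystals, was read at 353, 351 and 245 CPM in unstimulated a to c and 3.92, 4.47 and 5.79 CPM with IFN-γ and *E. coli*. It was read at 67.7, 57.97 and 80.99 CPM in unstimulated d to f and 61.8, 50.7 and 72.2 CPM with IL-4, with overlap. The difference was 5.88 ± 0.32 (edgeR adjusted p = 8.66e-10). *Clec7a*, dectin-1, rose with IL-4 by 1.17 and fell by 0.55 with IFN-γ and *E. coli*, while *Clec4d* and *Clec4e*, receptors for mycobacterial glycolipids, fell with IL-4 by 1.61 and 0.75 and rose by 1.76 and 1.66. *Marco*, a scavenger receptor for bacteria, fell with IL-4 from 221 to 32.6 CPM and rose with IFN-γ and *E. coli* from 138 to 364 CPM (difference -4.16 ± 0.21, edgeR adjusted p = 5.29e-10).

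Matrix and tissue remodelling genes gave no member higher and 8 lower of 17, with a median of -1.57 (-1.59 to -0.48). *Mmp9*, gelatinase B, was read at 167, 279.5 and 173 CPM in unstimulated d to f and 36.6, 43.3 and 40.7 CPM with IL-4, and at 163, 269 and 247 CPM in unstimulated a to c and 269.9, 243 and 295 CPM with IFN-γ and *E. coli*. It fell in all IL-4 libraries, the other groups overlapped, and the difference was -2.62 ± 0.29 (edgeR adjusted p = 2.53e-06). Integrins and adhesion genes gave 5 higher and 5 lower of 20, with a median of 0.12 (0.12 to 0.26). *Itgb3*, the integrin beta 3 chain, fell with IFN-γ and *E. coli* from 89.4 to 10.5 CPM and stood at 78.2 and 77.3 CPM without and with IL-4 (difference 3.07 ± 0.25, edgeR adjusted p = 6.44e-08).

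AP-1, EGR and Kruppel-like factors gave 3 higher and 13 lower of 29, with a median of -0.37 (-0.55 to 0.29). *Maff*, a small MAF protein, rose with IFN-γ and *E. coli* from 3, 2 and 4 to 109, 157 and 145 counts and was read at 5.46 and 7.28 CPM without and with IL-4 (difference -5.69 ± 0.45, edgeR adjusted p = 5.18e-08). *Bhlhe41*, a repressor of the clock, fell with IL-4 from 17.6, 21.1 and 21.1 to 1.52, 1.90 and 2.36 CPM and was read at 2.75 and 3.08 CPM without and with IFN-γ and *E. coli* (difference -3.50 ± 0.57, edgeR adjusted p = 0.000132). In unstimulated a to c it stood not far above the level of 3 counts, so a fall there could hardly be read. *Klf2*, a factor of quiescence, fell by 1.93 with IFN-γ and *E. coli* and gave -0.32 with IL-4. BCL2 family and PIM kinase genes gave 1 higher and 7 lower of 17, with a median of -0.46 (-0.63 to -0.37). *Pmaip1*, the death gene NOXA, fell by 0.87 with IL-4 and rose by 2.42 with IFN-γ and *E. coli*, and *Bcl2a1a*, a survival gene, was the 1 member higher, at 0.93 (edgeR adjusted p = 0.000868), a call lost under a factor of 2. *Bcl2a1a* has near-identical copies, between which counting could split reads.

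**Figure D3:**
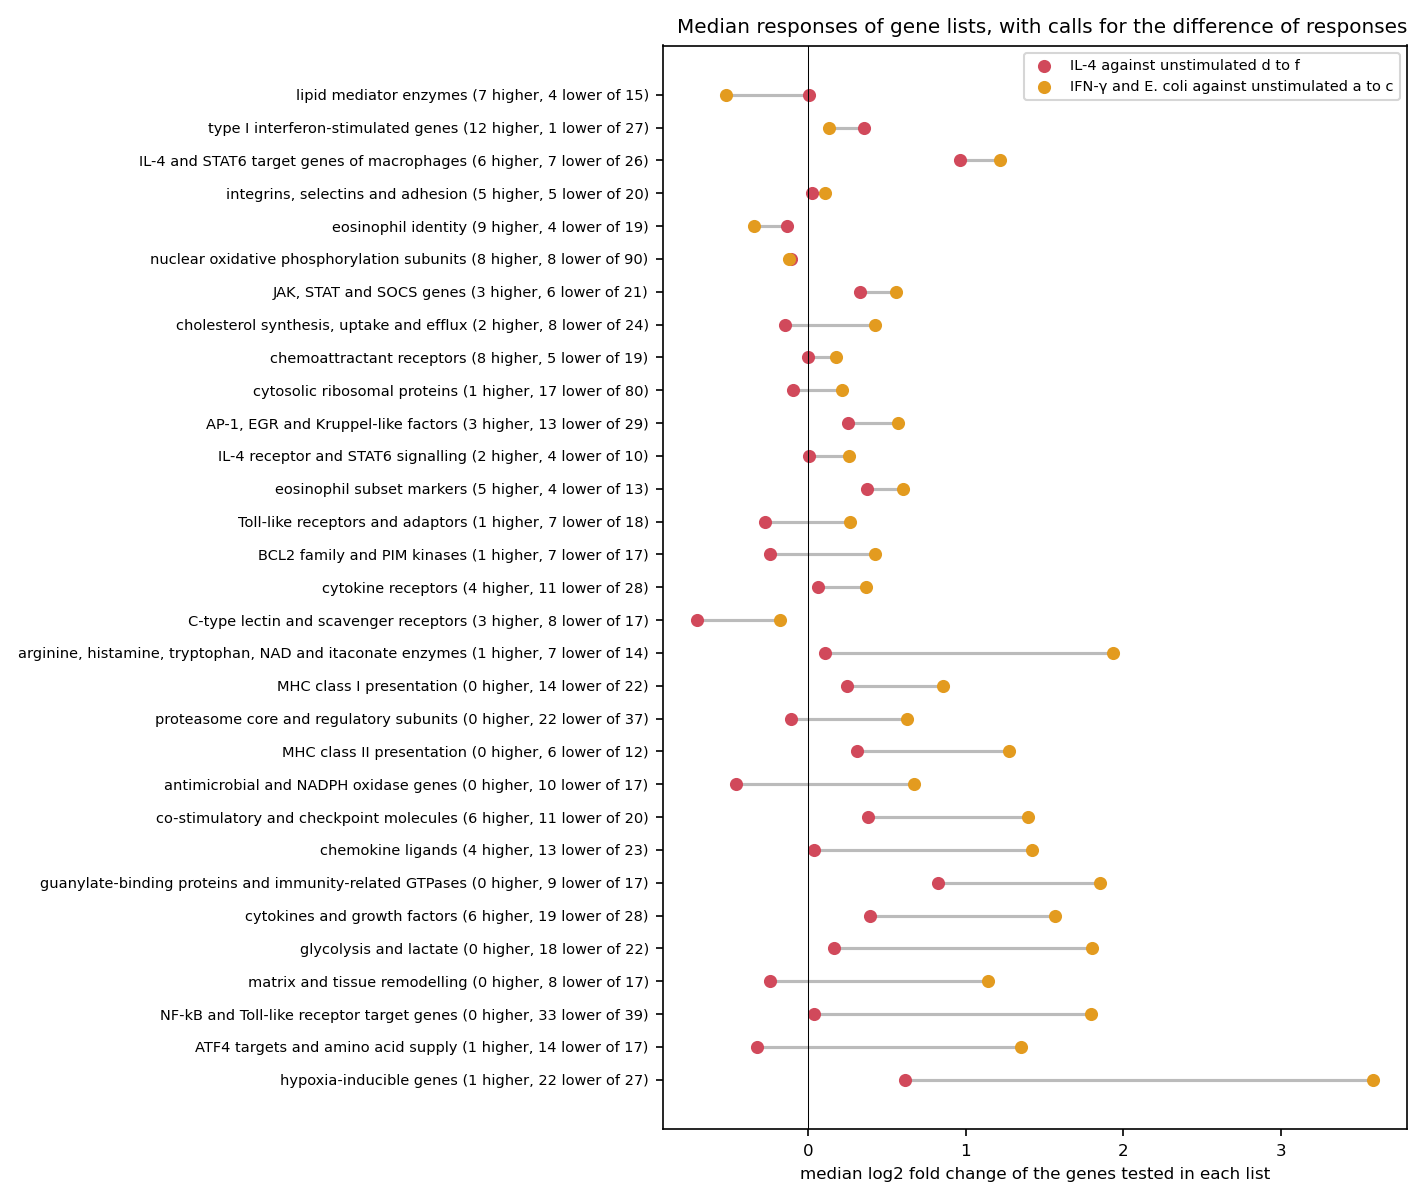
Median log2 response (x axis) of the genes tested in each list shown, with a red point for IL-4 and an orange point for IFN-γ with *E. coli*, and the number of genes called higher and lower for the difference beside each name. The points of hypoxia-inducible genes lie at 0.61 with IL-4 and 3.58 under IFN-γ and *E. coli*.

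Markers of other cells were present at various levels. The 12 macrophage markers summed to 1825, 1624 and 1752 CPM in unstimulated a to c, 1930, 2278 and 2579 CPM with IFN-γ and *E. coli*, 4208, 4570 and 5437 CPM in unstimulated d to f and 3392, 3254 and 3833 CPM with IL-4. Their most abundant gene was *Lyz2*, with none at 0, and 2 of 11 tested were higher and 5 lower for the difference, a balance that also turned in the direct comparison. The sums were lower with IL-4 and higher with IFN-γ and *E. coli* than in their unstimulated groups, the direction of *Marco* and *Clec4n*, and their part in the result was not tested. The 11 neutrophil markers summed to 509.7, 607 and 503, 327, 388 and 397, 2272, 2219 and 1907 and 931, 962 and 893 CPM in the same order of groups. Most of this was *Retnlg*, and of the 6 tested *Cxcr2* was higher and *S100a8* lower for the difference. The sums fell with both stimuli through *Retnlg* alone. The other 10 together were higher in every stimulated library than in any unstimulated library of the same layout. Among them *S100a8* went from 7.27 to 49.1 CPM with IFN-γ and *E. coli*, and *Cxcr2* rose with IL-4. The part of the neutrophil markers in the result was not tested.

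B cell markers summed to 188, 169 and 103 CPM in unstimulated a to c, 116, 126 and 116 CPM with IFN-γ and *E. coli*, 29.6, 27.9 and 50.9 CPM in unstimulated d to f and 75.6, 70.6 and 85.1 CPM with IL-4, with *Ighm* as the most abundant. They were higher with IL-4 than in its unstimulated group, and 3 of 6 tested were higher for the difference but not in the direct comparison. Of the 12 T and NK cell markers 9 never exceeded 3 counts and *Klrb1c* was at 0. Only 1 was tested, and it was not called. Mast cell and basophil markers summed to 8.48, 7.49 and 6.34, 32.7, 66.1 and 58.5, 9.76, 7.91 and 8.31 and 19.9, 9.68 and 23.9 CPM, led by *Tpsb2*, with both genes tested lower for the difference. These sums were higher in every IFN-γ and *E. coli* library than in unstimulated a to c. This is the direction of *Hdc*, *Il13* and *Il4* under that stimulus. With IL-4 both mast cell and basophil markers tested also rose, as did *Hdc*, while *Il13* fell. The part of these markers in the result was not tested. The call of *Tpsb2* was lost when any of 6 single libraries was left out, with values from -1.52 (IFN-γ and *E. coli* 3) to -1.28 (IL-4 2) in place of -1.58. Dendritic cell markers, led by *Ccr7*, summed to 21.4, 22.5 and 18.3, 34.6, 46.7 and 27.8, 12.6, 11.9 and 20.04 and 17.6, 24.9 and 27.99 CPM, and none of 4 tested was called, although *Ccr7* was without unstimulated d.

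Platelet markers summed to 487, 318 and 332, 372, 485 and 528, 705, 854 and 758 and 605, 617 and 681 CPM. Their most abundant gene was *Pf4*, whose difference of -0.13 was not called (edgeR adjusted p = 0.798), and *Gp9* and *Gp1bb* were at 0 in every library. Of 4 tested, *Itga2b* was higher and *Ppbp* and *Gp6* were lower for the difference. *Gp6* was read at 5.04, 5.65 and 6.39 CPM in unstimulated d to f and 1.95, 0.379 and 2.36 CPM with IL-4, a fall as for *Ppbp*. Its call was lost when any of 10 single libraries was left out, all but IL-4 1 and IL-4 3, with values from -2.77 (IFN-γ and *E. coli* 2) to -1.98 (IL-4 2) in place of -2.50 and adjusted p from 0.0166 to 0.189 over all alternative settings. *Itga2b*, whose call was lost on thinning and under a factor of 2, stood at 77.3, 61.4, 257 and 329.5 CPM in the order of the sums. Their part in the result was not tested. Erythroid markers, led by *Hbb-bs*, summed to 39.6, 64.7 and 61.6, 109.8, 143 and 96.7, 119, 113 and 106 and 84.7, 88.03 and 113 CPM, with 3 of 4 tested lower for the difference. Mesothelial and fibroblast markers, led by *Col3a1*, summed to 5.02, 1.60 and 4.93, 5.23, 2.98 and 1.74, 47.9, 38.96 and 38.8 and 46.8, 38.7 and 65.7 CPM, so that they separated the layouts and not the stimuli, and none was called.

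Promoters were searched for short motifs in the 250 bases before the start of each gene in RefSeq (build GRCm38.p6), as a description only. The letters TTCNNNNGAA, the spacing of a STAT6 site, were in 4.47% of 1052 promoters of called genes with a difference of at least 1, 4.44% of 968 with a difference of at most -1, 4.76% of 8179 promoters of genes tested, and 5.87% of all 27025. The core of an interferon response element, searched as TTTCNNTTTC, was in 4.56%, 3.10%, 3.12% and 3.04% in the same order. GGGNNNNNCC, the ends of an NF-κB site, was in 62.2%, 65.5%, 61.9% and 45.4%. Both strands were searched, and a match may overlap another motif.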

How the data were processed

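Libraries were made by CEL-Seq2 from 2 ng RNA. The authors deposited gene counts, from reads aligned to GRCm38 with TopHat2 2.1.0 and counted with HTSeq 0.6.1; fastp 0.20.1 and STAR 2.7.2a are also named, without saying for which libraries. Entries that name no gene held 21.1% to 39.4% of the counts in the 6 libraries of the first layout used here and were left out of totals and tests. CPM and log2 values were computed here from the counts.

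Counts were fitted in R 4.3.3 with edgeR 4.0.16 (filterByExpr, TMM, quasi-likelihood test, 4 group means, 8 residual degrees of freedom), with Benjamini-Hochberg adjustment and no fold threshold. SE values are approximate, from the fold change and its F statistic. DESeq2 1.42.0 and limma 3.58.1 served as alternatives, and estimated molecules were added after the ceiling was seen in the files. The fits were tested first on simulated counts with known differences. Replicate numbers of stimulated libraries were not used as pairs, since the labels do not pair them and the correlations of residuals between them were small. Pairs of stimulated with unstimulated libraries were not examined.

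Genes were named by rule: the largest differences in each direction, with or without a group whose libraries all exceed 3 counts in each layout, the largest responses in opposite and in the same directions, up to 4 genes with the smallest adjusted p in each list with any others needed to describe it, and 27 genes chosen from those the study names. Not every gene so named is described. Members and lists were chosen with earlier results of these data known. Some items are not reported here.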

Additional observations from a re-analysis of the deposited data

How the results depend on the processing

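The 1748 genes higher and 2020 lower for the difference were compared with DESeq2 size factors, DESeq2, limma voom, other filters, all 18 libraries and the other settings. They stayed within 1.5 times except as follows, and the cause was not tested unless stated. Thinning all libraries to the smallest total gave 1113 higher, 1295 lower, 102 and 137 in opposite directions (up and down with IL-4), and 147 up and 41 down with both, with fewer counts by construction. Requiring a factor of 2 gave 1254 lower, 96 and 51 in opposite directions, and 90 up and 21 down with both, as a stricter rule must. IL-4 directly against IFN-γ with *E. coli*, which leaves the layout in, gave 3067 higher and 3246 lower. Asking for at least 10 counts in every library left 3581 genes called between the unstimulated groups in place of 5385, with fewer genes tested. With no filter the median difference of all genes was 0.14, in place of 0.00, and the share of calls that were higher ran from 45.6% to 54.4% over the settings, beside 46.4%.

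The replicate block, with the numbers of the stimulated libraries as a term, gave 1675 higher and 1888 lower, 104 and 108 in opposite directions, and 137 up and 35 down with both. The labels do not pair these libraries. The correlations of residuals were 0.0543, 0.0147 and 0.106 between the same numbers and -0.0973 to 0.0587 between different numbers. Such small values across the layouts cannot decide whether the numbers mark pairs.

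Leaving out 1 library at a time gave 1517 (without unstimulated a) to 1841 (without unstimulated e) genes higher and 1533 (without unstimulated a) to 2042 (without unstimulated d) lower. Opposite directions ran from 164 to 269 for genes up with IL-4 and from 158 to 309 for genes down with IL-4. Genes up with both ran from 173 to 249 and down with both from 60 to 115. Estimated molecules, which undo the ceiling under a model, gave 1924 higher and 1853 lower.

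Of 139 genes named, DESeq2, limma voom and the replicate block each lost the call of *Pdcd1lg2*, DESeq2 and estimated molecules that of *Gp6*, and thinning lost those of *Ccl22*, *Cd80*, *Fcgr1*, *Ifitm6*, *Il4*, *Itga2b*, *Pdcd1lg2* and *Tpsb2*. A factor of 2 lost those of *Bcl2a1a*, *Ccr3*, *Cd86*, *Cxcr4*, *Fcgr1*, *Gpi1*, *Il4*, *Itga2b*, *Lyz2* and *Tap1*, no filter those of *Gp6*, *Pdcd1lg2*, *Tap1* and *Tpsb2*, and all 18 libraries that of *Tpsb2*, with no sign reversed for a called gene outside the direct comparison. That comparison lost the calls of *Cebpe*, *Gata1*, *Hbb-bs*, *Il5ra* and *Socs3*, and values of opposite sign were 2.11 for *Ccl24*, 0.12 for *Ccr3*, 6.74 for *Col3a1*, 0.94 for *Fabp7*, 0.10 for *H2-Ab1*, -0.28 for *Ighm*, 0.42 for *Lyz2*, 0.55 for *Nfkbia*, 0.16 for *Pdcd1lg2* and 1.63 for *Retnlg*, where the layout enters by construction. Libraries of 3 per group, a ceiling in 1 layout and lower depth there limit what low and abundant genes can show.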
